A study of Homo sapiens with 9 samples.

Results

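Autophagy delivers portions of cytoplasm and whole organelles to the lysosome, and 34 genes of this pathway were followed here. They are 6 receptors for the endoplasmic reticulum (ER), 5 other cargo receptors and 4 genes of the ATG8 family. A further 15 belong to the core machinery and 4 to mitophagy. The mitophagy genes are the receptors BNIP3, BNIP3L and FUNDC1 and the kinase PINK1, which the figures group with the mitophagy receptors. Members were taken by gene name from a table of 58735 named genes, and every name was found. Of the 34, 33 passed the expression filter and belong to the 15242 genes tested.

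The cells were MDA-MB-231, an established human line of triple-negative breast cancer with mesenchymal features. According to the series title they were kept 6 h in hypoxia, that is, at low oxygen, and no library without hypoxia was analysed here. Bulk total RNA was sequenced from 9 libraries, 6 with the genotype label sgL1 and 3 with sgCtrl. The design text names knockout of UFL1 or UFM1, the ligase and the modifier of UFMylation, while the title speaks of a knockdown; the labels do not spell out sgL1, and whether the cells are a clone or a pool is not stated. UFL1 was checked first: it measured 15.2, 12.9, 12.9, 22.9, 20 and 21.2 CPM (counts scaled to library size) in sgL1 libraries 1 to 6 and 27.4, 25.4 and 25.4 CPM in sgCtrl. It lay below sgCtrl in every sgL1 library, and sgL1 libraries 4 to 6 lay above libraries 1 to 3. The labels do not divide the sgL1 libraries, so results are given for all 6 and, where they differ, for each set of 3. Separate cultures are not stated for the libraries of a group, so the p-values rest on a spread that may be technical.

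Libraries held 15420073 to 17038409 counts on named genes, and the common biological coefficient of variation, a measure of spread within groups, was 6.53%. Of 5 mesenchymal markers, VIM, CD44, AXL and MSN were high in every library and SPARC stayed below 1 CPM. Between sgL1 and sgCtrl, CD44 rose 1.26-fold (edgeR adjusted p = 2.71e-08) and AXL fell to 0.841-fold (adjusted p = 3.12e-06). The adjusted p was 0.0894 for VIM and 0.259 for MSN. The 6 luminal markers summed to 75.0 to 86.2 CPM in sgL1 and 70.8 to 81.3 CPM in sgCtrl: ESR1 and CDH1 stayed below 1 CPM, ERBB2 was at 47.6 to 58.0 CPM, and FOXA1 rose 1.38-fold, from 15 to 18.6 CPM in sgCtrl to 21.5 to 24.7 CPM in sgL1 (edgeR adjusted p = 0.000355). The 7 fibroblast markers summed to 15.8 to 20.6 CPM in sgL1 and 11.6 to 14.5 CPM in sgCtrl, with COL1A2 and LUM at 0 in all libraries. The 4 endothelial markers summed to 13.7 to 15.7 and 9.86 to 12.9 CPM, and the 5 leukocyte markers, with CD3E at 0, to 1.39 to 2.78 and 1.47 to 2.26 CPM. Among the fibroblast markers PDGFRB rose 1.59-fold (edgeR adjusted p = 0.000837), and COL1A1 did not pass (adjusted p = 0.148). Among the endothelial markers PECAM1 rose 1.69-fold (edgeR adjusted p = 0.000273), and KDR, at 0.909-fold, did not pass (adjusted p = 0.694). The other markers of these lists stayed below 1 CPM. The fibroblast and endothelial sums, CD44, AXL and FOXA1 thus moved with the groups, and their part in the results was not tested. In bulk RNA a change in the RNA of each cell and a change in the share of cells that hold it cannot be told apart.

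Autophagosome formation starts with the ULK kinase complex and the lipid kinase complex around BECN1 and PIK3C3, whose product is read by WIPI proteins. A ubiquitin-like conjugation system then attaches ATG8 proteins (the LC3 and GABARAP branches) to the growing membrane, and receptors tether cargo to ATG8. In ER-phagy the cargo is a piece of ER and in mitophagy a mitochondrion. BNIP3 and BNIP3L are textbook targets of the hypoxia-inducible factors, and UFL1 and its adaptor have been linked to starvation-induced ER-phagy in human cells.

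The sequence before the start site of a few members is shown because their RNA was measured under hypoxia and they differ in whether they hold the core of the hypoxia response element. The windows hold 300 bases around the start site, from RefSeq on GRCh38.p14, and were available for 30 of the 34 members. Capitals mark ACGTG or GCGTG on either strand; a CACGTG holds ACGTG on both strands and counts as 2 matches. BNIP3 (chr10:131981874-131982173, minus strand), MAP1LC3B (chr16:87392086-87392385, plus), ULK1 (chr12:131894372-131894671, plus) and GABARAPL1 (chr12:10212627-10212926, plus) were higher in sgL1, and ATG3 (chr3:112561913-112562212, minus) is the member with the most matches.
BNIP3: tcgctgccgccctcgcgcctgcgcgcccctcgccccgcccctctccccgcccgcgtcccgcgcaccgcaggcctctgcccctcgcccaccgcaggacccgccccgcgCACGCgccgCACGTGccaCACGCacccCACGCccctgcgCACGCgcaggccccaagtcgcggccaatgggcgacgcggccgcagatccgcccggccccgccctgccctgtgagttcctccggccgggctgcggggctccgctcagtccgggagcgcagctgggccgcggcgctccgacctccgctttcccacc
MAP1LC3B: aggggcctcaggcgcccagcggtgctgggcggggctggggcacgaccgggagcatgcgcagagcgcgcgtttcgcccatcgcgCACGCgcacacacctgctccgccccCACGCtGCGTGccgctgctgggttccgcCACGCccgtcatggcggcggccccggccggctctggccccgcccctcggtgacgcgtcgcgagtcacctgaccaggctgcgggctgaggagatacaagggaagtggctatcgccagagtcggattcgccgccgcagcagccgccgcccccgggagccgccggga
ULK1: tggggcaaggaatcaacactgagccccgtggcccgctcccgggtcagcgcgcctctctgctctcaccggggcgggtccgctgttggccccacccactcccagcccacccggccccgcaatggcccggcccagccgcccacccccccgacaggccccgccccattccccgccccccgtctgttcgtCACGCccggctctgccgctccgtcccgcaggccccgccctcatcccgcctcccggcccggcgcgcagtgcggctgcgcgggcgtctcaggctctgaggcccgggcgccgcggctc
GABARAPL1: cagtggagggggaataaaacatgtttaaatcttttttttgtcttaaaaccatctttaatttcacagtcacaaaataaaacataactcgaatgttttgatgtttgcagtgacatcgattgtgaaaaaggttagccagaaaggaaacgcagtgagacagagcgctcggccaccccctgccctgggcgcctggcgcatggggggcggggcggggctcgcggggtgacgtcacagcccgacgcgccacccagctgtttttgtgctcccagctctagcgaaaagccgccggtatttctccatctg
ATG3: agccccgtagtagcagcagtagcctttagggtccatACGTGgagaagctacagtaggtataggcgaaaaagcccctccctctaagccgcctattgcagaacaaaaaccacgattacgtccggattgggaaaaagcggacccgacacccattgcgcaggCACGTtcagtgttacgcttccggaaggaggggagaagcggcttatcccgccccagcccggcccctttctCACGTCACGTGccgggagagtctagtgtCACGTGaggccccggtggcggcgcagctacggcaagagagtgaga
There were 6 matches in the window of BNIP3, 4 in that of MAP1LC3B, 1 in that of ULK1, 0 in that of GABARAPL1 and 7 in that of ATG3. Some members have more than 1 window, and at least 1 match was present in 22 of the members' 38 windows and in 48.4% of all 35116 RefSeq windows of that length. The E-box CACGTG, which lies inside some of these matches, was found in 3 of the 38 windows (ATG14, ATG3 and BNIP3) and in 7.26% of all windows. The longer palindrome GTCACGTGAC, known from lysosomal genes, was found in 0 of the 38 and in 0.353% of all windows, and the FOXO element GTAAACA in 1 of the 38, that of CALCOCO2, and in 3.42%. These are matches of letters in a window and no measure of binding.

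Levels of different genes were compared per gene length, as deposited FPKM (fragments scaled to gene length and library size), in the sgCtrl libraries. These are totals per gene: transcript forms of a gene, RTN3 among them, were not told apart. The hypoxia-linked mitophagy receptor BNIP3 was the highest member at 39.1 ± 1.27 FPKM (SD, n = 3), followed by RTN3, a receptor for ER tubules, at 26.6 ± 0.428 and BNIP3L at 21.4 ± 0.600 FPKM. MAP1LC3B, the LC3 gene most often used as an autophagosome marker, came next at 16.8 ± 0.437 FPKM. Each of these 4 lay apart from the next in all 3 libraries. ATL3 (14.8 FPKM) and the cargo receptor NBR1 (14.5 FPKM) overlapped each other, as did most neighbours from TAX1BP1 (10.4 FPKM) down to ATG5 (5.85 FPKM). At the low end were ULK1 at 3.45, GABARAPL1 and GABARAP at 1.64 each, CCPG1 at 1.19 and CALCOCO1 at 1.10 FPKM. GABARAP shares 30.5% and CCPG1 38.9% of its exon bases with other genes on the same strand. Whether this lowered their listed levels was not tested. RETREG1, the receptor for ER sheets also known as FAM134B, measured 0.436 ± 0.122 FPKM (SD, n = 3) and ULK2 0.137 ± 0.0554 FPKM (SD, n = 3). The order within each function was therefore wide: the ER-phagy receptors ran from RETREG1 to RTN3 and the 4 ATG8 genes from GABARAPL1 and GABARAP to MAP1LC3B.

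**Figure D1:**
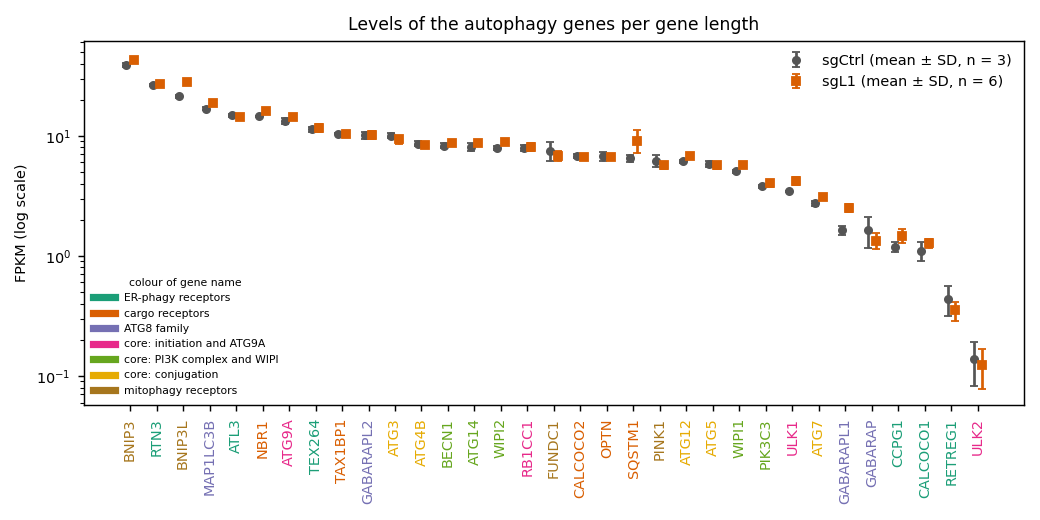
Levels per gene length (FPKM, log axis) of the members in sgCtrl (grey, mean ± SD, n = 3) and sgL1 (orange, mean ± SD, n = 6), ordered by the sgCtrl mean; ATG16L1, listed at 0 or near 0, is not drawn. BNIP3 leads at 39.1 FPKM and ULK2 is lowest at 0.137 FPKM.

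ATG16L1, which directs ATG8 conjugation to the membrane, was listed at 1 count over all 9 libraries together, in sgL1 library 2, so it was not tested. At this depth an absent count leaves room for 3 counts, which is 0.176 to 0.195 CPM. Its neighbours on chromosome 2 gave both kinds of value: INPP5D and SAG had 0 counts, while DGKD measured 80.2 to 94.4 CPM and USP40 60.2 to 66.4 CPM. No other gene overlaps the exons of ATG16L1 in GENCODE release 29, and whether a counting step led to this value was not tested.

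Between sgL1 and sgCtrl, 6 of the 33 tested members rose and 0 fell by edgeR's quasi-likelihood F test, at a p under 0.05 after Benjamini-Hochberg adjustment over all 15242 genes. Of all tested genes 5.52% rose and 3.98% fell, together 9.49%. The 6 were the ATG8 genes GABARAPL1 and MAP1LC3B, the mitophagy receptors BNIP3L and BNIP3, the initiating kinase ULK1 and the cargo receptor NBR1. No member of the ER-phagy receptors, of the lipid kinase and WIPI genes or of the conjugation genes passed. At an unadjusted p under 0.05 in the same test, 12 members were higher and 0 lower, against 11.8% and 9.7% of all genes. All 6 sgL1 libraries lay above all 3 sgCtrl libraries for 10 members (7.61% of all genes) and below them for 0 (6.4%). The changes were small: the median log2 fold change over the 33 members was 0.06, with 22 positive and 11 negative, and that over all tested genes 0.002. Of the 27 members that did not pass, 19 had a 95% interval within a 1.25-fold change either way, so larger changes lie outside those intervals. The 8 with wider intervals were RETREG1, CCPG1, CALCOCO1, SQSTM1, GABARAP, ULK2, WIPI1 and FUNDC1.

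**Figure D2:**
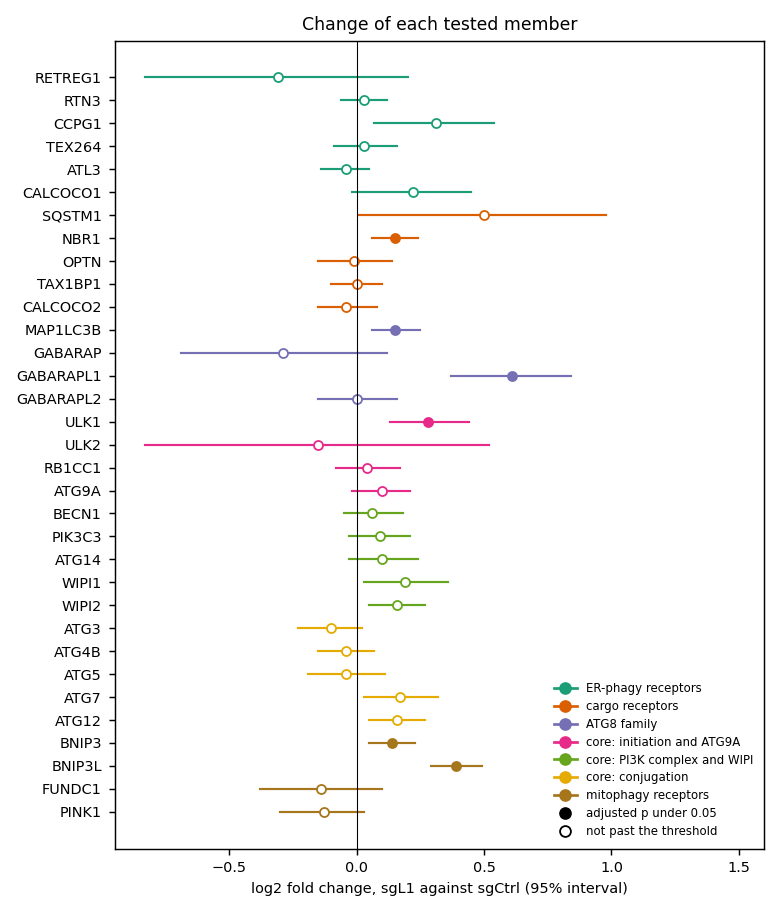
log2 fold change of each tested member, sgL1 (n = 6) against sgCtrl (n = 3), with its 95% interval; filled points passed edgeR's test at an adjusted p under 0.05 and colours mark the function. The 6 filled points all lie to the right of 0, from BNIP3 at 0.14 to GABARAPL1 at 0.61.

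Of the 4 ATG8 genes followed, 2 rose (5.52% of all tested genes rose). GABARAPL1 (chromosome 12, 10212458 to 10223130, plus strand, GRCh38), a GABARAP-branch gene, measured 10.7, 10.9, 10.2, 10.7, 8.87 and 10.4 CPM in sgL1 libraries 1 to 6 and 7.03, 7.16 and 6.08 CPM in sgCtrl. Every sgL1 library was higher than every sgCtrl library, and library 5 was the lowest of the 6. This was the largest change among the members, 1.52-fold (log2 fold change 0.61, 95% interval 0.37 to 0.84, edgeR adjusted p = 0.000509), on 95 to 179 counts per library. It passed in all 9 fits that left out a library and in both sets of 3 sgL1 libraries, with 0.65 for libraries 1 to 3 and 0.56 for libraries 4 to 6.

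MAP1LC3B (chromosome 16, 87383995 to 87404779, plus strand, GRCh38) measured 98.7, 93.6, 102.4, 105.6, 100.8 and 100.7 CPM in sgL1 and 87.6, 91.6 and 91.4 CPM in sgCtrl. The groups did not overlap, but the lowest sgL1 library came close to the highest sgCtrl library. Its log2 fold change was 0.15 (95% interval 0.06 to 0.25, edgeR adjusted p = 0.0389). The call was lost in 8 of the 9 fits that left out a library, with adjusted p between 0.0545 and 0.22, and held only without sgL1 library 2. Its near-identical copy MAP1LC3B2 had 6.5% of the CPM of MAP1LC3B, and reads could be shared between them.

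GABARAPL2, of the GABARAP branch, gave a log2 fold change of 0.00 (95% interval -0.15 to 0.16) at 28.8 to 34.3 CPM in sgL1 and 28.7 to 32.7 in sgCtrl. GABARAP gave -0.29 (95% interval -0.69 to 0.12) at 2.57 to 3.77 against 2.75 to 4.9 CPM, with 30.5% of its exon bases shared with another gene on the same strand. Neither passed, and both sets of libraries overlapped. As a share of the summed FPKM of these 4 genes, GABARAPL1 made up 6.78% to 8.17% in sgL1 and 4.85% to 5.88% in sgCtrl, while MAP1LC3B held 53.8% to 59.3% and 54.9% to 56.4%. Among the 4, MAP1LC3B and then GABARAPL2 were highest in both groups, and GABARAPL1 was the gene whose share did not overlap between groups. The sum leaves out MAP1LC3B2, at 3.50 ± 0.706 FPKM (SD, n = 6) in sgL1 and 3.59 ± 0.314 FPKM (SD, n = 3) in sgCtrl, a higher level than that of GABARAPL1.

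Of the 4 mitophagy genes, BNIP3L and BNIP3, paralogous outer-membrane proteins that bind ATG8 directly, rose (5.52% of all tested genes rose). BNIP3L (also NIX) measured 129.3, 115.6, 122.7, 127.3, 119.2 and 117.4 CPM in sgL1 and 92.6, 90.9 and 95.7 CPM in sgCtrl. The lowest sgL1 library stood well clear of the highest sgCtrl library. The change was 1.31-fold (log2 fold change 0.39, 95% interval 0.29 to 0.49, edgeR adjusted p = 1.03e-06), and it passed in all 9 fits without a library. Against the same sgCtrl libraries, libraries 1 to 3 gave 0.40 and libraries 4 to 6 gave 0.38.

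BNIP3 (chromosome 10, 131966455 to 131982013, minus strand, GRCh38) measured 244.2, 247.1, 223.1, 228.4, 226.9 and 222.4 CPM in sgL1 and 216.8, 211.6 and 202.4 CPM in sgCtrl. The groups did not overlap, with sgL1 libraries 1 and 2 the highest. Its change was smaller than that of BNIP3L, a log2 fold change of 0.14 (95% interval 0.05 to 0.23, edgeR adjusted p = 0.0371); the difference between the paralogues was not tested. The call was lost without sgL1 library 1, 2 or 5 or any of the sgCtrl libraries (adjusted p between 0.0598 and 0.24), and libraries 4 to 6 alone gave 0.10 (adjusted p = 0.063). None of its annotated pseudogenes held more than 0.469% of its CPM.

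FUNDC1, an outer-membrane receptor known from hypoxia-induced mitophagy, gave -0.14 (95% interval -0.38 to 0.10) at 8.08 to 10.7 against 8.9 to 12.6 CPM. PINK1, the kinase that marks damaged mitochondria, gave -0.13 (95% interval -0.30 to 0.03) at 24.5 to 30.4 against 28.2 to 34 CPM, with 39.4% of its exon bases shared with its antisense gene. Neither passed. The summed FPKM of the 4 mitophagy genes was 80.7 to 87.9 in sgL1 and 73.2 to 75.1 in sgCtrl. BNIP3L made up 31.1% to 34.8% and 27.8% to 30.2% of it.

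Of the 14 core members tested, ULK1 rose and 13 did not pass, where 5.52% of all tested genes rose and 3.98% fell. The median log2 fold change was 0.10, with 10 positive and 4 negative. ULK1 (chromosome 12, 131894651 to 131923167, plus strand, GRCh38), the kinase that starts autophagosome formation, measured 33.6, 30.2, 36.1, 29.7, 31.0 and 32.9 CPM in sgL1 and 26.4, 26.6 and 26.5 CPM in sgCtrl. The sgCtrl libraries were almost equal and all sgL1 libraries lay above them. The change was 1.22-fold (log2 fold change 0.28, 95% interval 0.13 to 0.44, edgeR adjusted p = 0.0126). Without any 1 of the sgCtrl libraries the adjusted p was 0.0574 to 0.0625, and it passed without any of the sgL1 libraries.

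Its paralogue ULK2 was near the filter, at 0.575 to 1.88 against 0.83 to 1.92 CPM, and its interval was the widest of the core genes (log2 fold change -0.15, 95% interval -0.83 to 0.52). RB1CC1, the scaffold of the ULK complex also called FIP200, gave 0.04 (95% interval -0.08 to 0.17). ATG9A, the scramblase carried by seed vesicles, gave 0.10 (95% interval -0.02 to 0.21), with 38.8% of its exon bases shared with another gene.

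All 5 members from the lipid kinase complex and its readers had positive log2 fold changes, from 0.06 to 0.19. None passed after adjustment, where 9.49% of all tested genes passed. WIPI2, which reads the lipid and recruits the conjugation machinery, measured 78.9, 83.0, 86.5, 74.6, 81.4 and 76.5 CPM in sgL1 and 72.6, 73.6 and 69.2 CPM in sgCtrl. WIPI1, its relative, measured 19.3, 19.5, 21.0, 20.1, 20.7 and 18.3 CPM and 17.1, 18.1 and 16.8 CPM. For both, all sgL1 libraries lay above all sgCtrl libraries by a narrow margin, as they did for 7.61% of all tested genes. The log2 fold change of WIPI2 was 0.16 (95% interval 0.05 to 0.27, edgeR adjusted p = 0.0563) and that of WIPI1 0.19 (0.03 to 0.36, adjusted p = 0.143). WIPI2 passed without sgL1 library 4 (adjusted p = 0.0191) and in libraries 1 to 3 alone (0.20, adjusted p = 0.00666). It did not pass in the other 8 fits that left out a library (adjusted p up to 0.265). Nor did it pass in libraries 4 to 6 alone (0.11, adjusted p = 0.184). For WIPI1, 28.1% of the exon bases overlap genes on the other strand. BECN1, the scaffold of the complex, gave 0.06, its kinase PIK3C3 0.09 and its autophagy-specific subunit ATG14 0.10, each with overlapping groups.

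Among the conjugation genes, ATG7, the E1-like enzyme, and ATG12, the ubiquitin-like protein joined to ATG5, did not overlap between groups without passing. All 6 sgL1 libraries lay above all 3 sgCtrl libraries for 7.61% of all tested genes. ATG7 measured 27.2, 27.1, 28.0, 26.9, 28.8 and 27.1 CPM in sgL1 and 24.0, 25.6 and 23.6 CPM in sgCtrl (log2 fold change 0.17, 95% interval 0.03 to 0.32, edgeR adjusted p = 0.137). ATG12 measured 64.6, 57.1, 59.5, 65.5, 61.3 and 60.3 CPM and 56.1, 55.6 and 53.1 CPM (0.16, 0.05 to 0.27, adjusted p = 0.072). In both the sgL1 libraries were higher by a small margin. ATG12 passed without sgL1 library 2 (adjusted p = 0.0384) and in sgL1 libraries 4 to 6 alone (0.18, adjusted p = 0.0315). It did not pass in the other 8 fits that left out a library (adjusted p up to 0.284). Nor did it pass in sgL1 libraries 1 to 3 alone (0.14, adjusted p = 0.139). The E2-like enzyme ATG3 gave -0.10 (95% interval -0.23 to 0.02), the protease ATG4B -0.04 and ATG5 -0.04, each with overlapping groups.

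**Figure D3:**
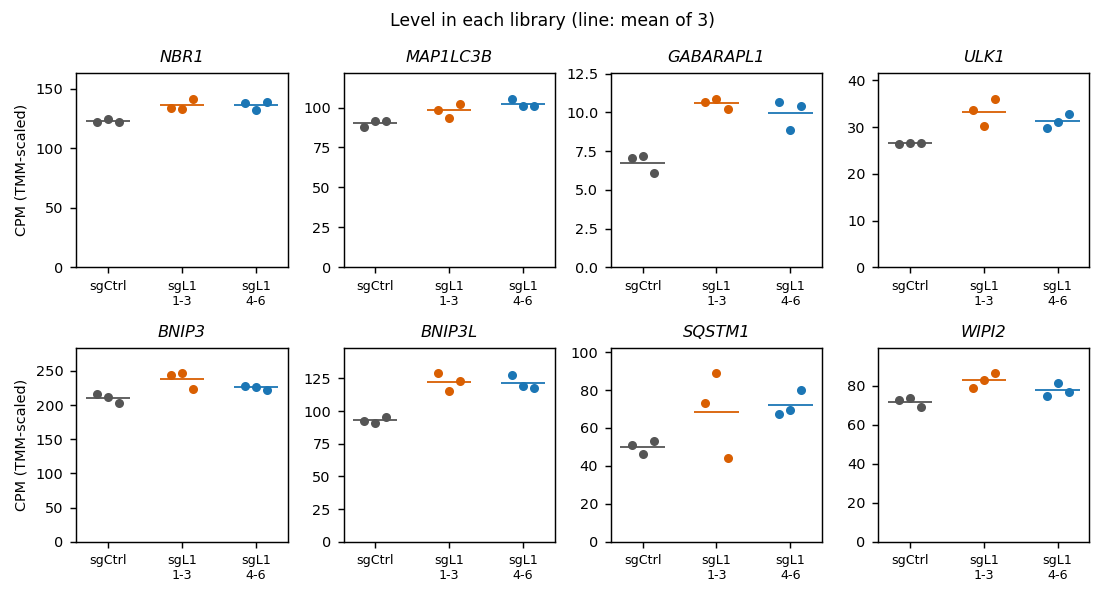
CPM in each library for the 6 members that passed and for SQSTM1 and WIPI2, with sgCtrl in grey, sgL1 libraries 1 to 3 in orange and 4 to 6 in blue; lines are means of 3 libraries and axes start at 0. In SQSTM1, sgL1 library 3 at 44 CPM lies below the sgCtrl libraries.

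Of the 5 cargo receptors, which link ubiquitin-marked cargo to ATG8, NBR1 rose (5.52% of all tested genes rose). NBR1 (chromosome 17, 43170481 to 43211689, plus strand, GRCh38) measured 133.7, 133.1, 141.9, 138.1, 132.5 and 139.3 CPM in sgL1 and 122.6, 124.7 and 122.0 CPM in sgCtrl. The groups did not overlap and the spread inside each was small. The log2 fold change was 0.15 (95% interval 0.06 to 0.24, edgeR adjusted p = 0.0248), and it was called in both sets of 3 sgL1 libraries (0.14 and 0.15). Without sgL1 library 6 or any of the sgCtrl libraries it was not called (adjusted p between 0.0541 and 0.12).

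SQSTM1, which encodes p62, varied most among the sgL1 libraries of the 30 members with a mean of at least 5 CPM. It measured 73.0, 89.1, 44, 67.5, 69.4 and 80.0 CPM in sgL1 and 51.0, 46.1 and 52.9 CPM in sgCtrl. Library 3 lay below the sgCtrl libraries, and the other sgL1 libraries lay above them. The coefficient of variation in sgL1 was 21.6%, against a median of 5.53% over these 30 members, and 1.42% of the 10689 genes at that level had a higher value. Over all libraries the log2 fold change of 0.50 did not pass (95% interval 0.01 to 0.98, edgeR adjusted p = 0.226). Without library 3 it was 0.60 (adjusted p = 0.000111) and in libraries 4 to 6 alone 0.53 (adjusted p = 2.44e-08). SQSTM1 did not pass in the other 8 fits that left out a library (adjusted p up to 0.486). Nor did it pass in libraries 1 to 3 alone (0.46, adjusted p = 0.432). The exons of SQSTM1 share 22.0% of their bases with genes on the other strand.

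TAX1BP1 gave a log2 fold change of 0.00 (95% interval -0.10 to 0.10), CALCOCO2, also called NDP52, -0.04 (95% interval -0.15 to 0.08) and OPTN -0.01 (95% interval -0.15 to 0.14). These 3 ubiquitin-binding receptors thus showed no change over 1.25-fold within their intervals.

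None of the 6 ER-phagy receptors passed, and their median log2 fold change was 0.03. Over all tested genes 9.49% passed, and so small a group can hold none at that share. The receptor genes with the highest CPM, summed over their transcript forms, had the narrowest intervals. RTN3 gave 0.03 (95% interval -0.06 to 0.12) at 151.0 to 166.7 CPM in sgL1 and 153.9 to 158.0 CPM in sgCtrl. ATL3, an ER-shaping GTPase, gave -0.04 (95% interval -0.14 to 0.05) at 106.3 to 117.5 against 109.7 to 115.7 CPM. TEX264, a membrane-anchored receptor, gave 0.03 (95% interval -0.09 to 0.16) at 61.3 to 75.1 against 62.8 to 68.6 CPM. In all 3 the groups overlapped widely.

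The scarcer receptors were less well determined. CCPG1, a receptor known to respond to ER stress, measured 15, 12.8, 10.5, 12.6, 12.4 and 15 CPM in sgL1 and 10.9, 9.42 and 11.3 CPM in sgCtrl. Library 3 overlapped sgCtrl and the other sgL1 libraries lay above it. The log2 fold change was 0.31 (95% interval 0.07 to 0.54, edgeR adjusted p = 0.0923). Without library 3, the same library that was low in SQSTM1, it was 0.36 (adjusted p = 0.0306). CCPG1 did not pass in the other 8 fits that left out a library (adjusted p up to 0.402). Of its exon bases, 38.9% belong also to a readthrough gene on the same strand. CALCOCO1, a soluble receptor held at the ER by VAP proteins, gave 0.22 (95% interval -0.02 to 0.45) and RETREG1 -0.31 (95% interval -0.83 to 0.20), the latter on 20 to 40 counts per library.

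**Figure D4:**
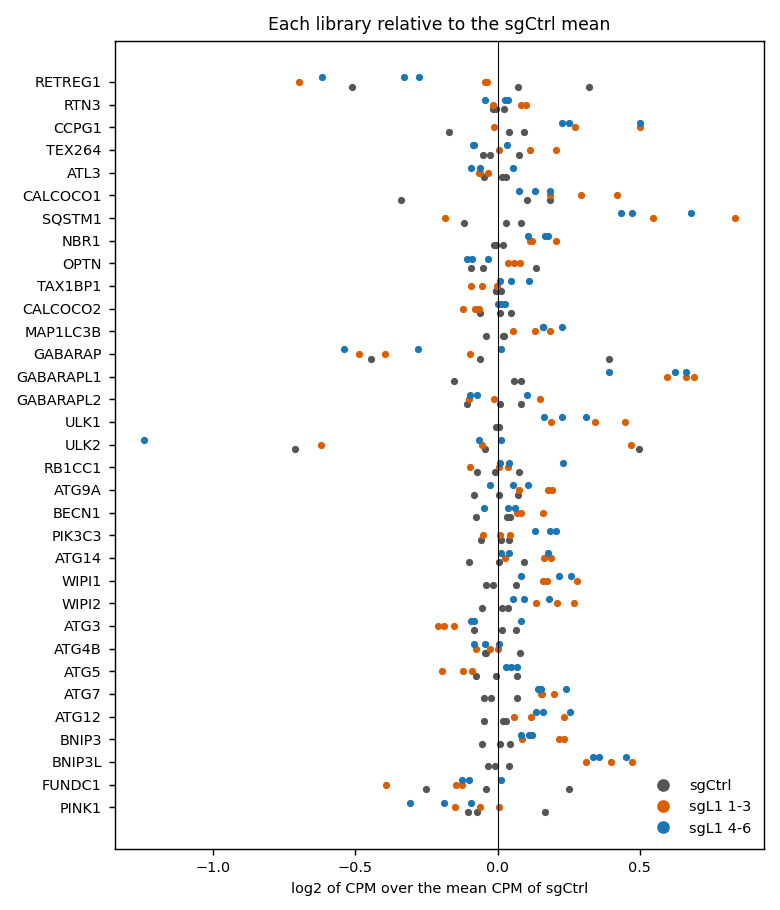
log2 ratio of each library's CPM to the sgCtrl mean for the 33 tested members, with sgCtrl in grey, sgL1 libraries 1 to 3 in orange and 4 to 6 in blue. All coloured points of GABARAPL1 and BNIP3L lie to the right of the grey ones, and SQSTM1 and ULK2 show the widest spread.

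Taken as separate sets of 3, the sgL1 libraries gave overlapping but not identical calls; both sets share the sgCtrl libraries. With libraries 1 to 3, 6 members rose (GABARAPL1, BNIP3L, ULK1, NBR1, BNIP3 and WIPI2; 8.07% of genes rose) and ATG3 fell (-0.19, edgeR adjusted p = 0.03; 7.12% fell). With libraries 4 to 6, 9 rose (GABARAPL1, BNIP3L, ULK1, NBR1, MAP1LC3B, SQSTM1, CCPG1, ATG12 and PIK3C3; 6.73% of genes rose) and 0 fell (5.57% fell). GABARAPL1, BNIP3L, ULK1 and NBR1 were called in both, and the share of all genes called in both was not determined. Libraries 1 to 3 did not overlap libraries 4 to 6 for 7 of the 33 members, which compares with 24.1% of all genes. OPTN and BECN1 were higher in libraries 1 to 3, and TAX1BP1, CALCOCO2, PIK3C3, ATG3 and ATG5 in libraries 4 to 6.

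The rest of the pathway was read from a list of 68 other genes, of which 63 were tested, with 3 that rose and 4 that fell (5.52% and 3.98% of all genes) and a median log2 fold change of -0.03. All 3 that rose were core genes, 3 of the 19 tested. VMP1, an ER scramblase needed for autophagosome closure, measured 159.3 to 171.7 CPM in sgL1 and 146.5 to 149.3 in sgCtrl (log2 fold change 0.17, edgeR adjusted p = 0.00557). WDR45, a WIPI-type lipid reader, measured 43.8 to 49.0 and 35.8 to 41.8 CPM (0.26, adjusted p = 0.00698). NRBF2, a subunit of the lipid kinase complex, measured 30.1 to 34.7 and 26.1 to 29.9 CPM (0.24, adjusted p = 0.04). The groups of each were apart, though for NRBF2 only just. WDR45 lost its call without sgCtrl library 3 (adjusted p = 0.104) and NRBF2 without sgL1 library 1, 5 or 6 or sgCtrl library 2 or 3 (adjusted p up to 0.215).

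The 4 genes that fell came from 3 lists. MITF, a transcription factor of the TFEB family, measured 36.8 to 43.9 CPM in sgL1 and 51.5 to 59.5 in sgCtrl (log2 fold change -0.49, edgeR adjusted p = 3.83e-06). Its relatives TFEB (-0.01, at 2.03 to 3.39 against 2.14 to 3.52 CPM) and TFE3 (0.02, at 67.9 to 82.2 against 74.2 to 78.6 CPM) did not pass. FOXO3, a transcription factor with autophagy genes among its targets, measured 53.1 to 56.8 and 58.9 to 62.8 CPM (-0.16, adjusted p = 0.043). EPG5, a tether for autophagosome-lysosome fusion, measured 55.9 to 64.9 and 74.9 to 78.1 CPM (-0.30, adjusted p = 0.00024), and MUL1, a mitochondrial ubiquitin ligase, 41.5 to 51.0 and 54.0 to 57.7 CPM (-0.21, adjusted p = 0.0287). For all 4 every sgL1 library lay below every sgCtrl library. MITF and EPG5 were called in every fit without a library. MUL1 lost its call without sgL1 library 5 or any of the sgCtrl libraries (adjusted p up to 0.188), and FOXO3 without sgL1 library 1, 3 or 5 or any of the sgCtrl libraries (adjusted p up to 0.231). None of the other ER-phagy and cargo receptors passed (0 of 8, where 9.49% of all tested genes passed).

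**Figure D5:**
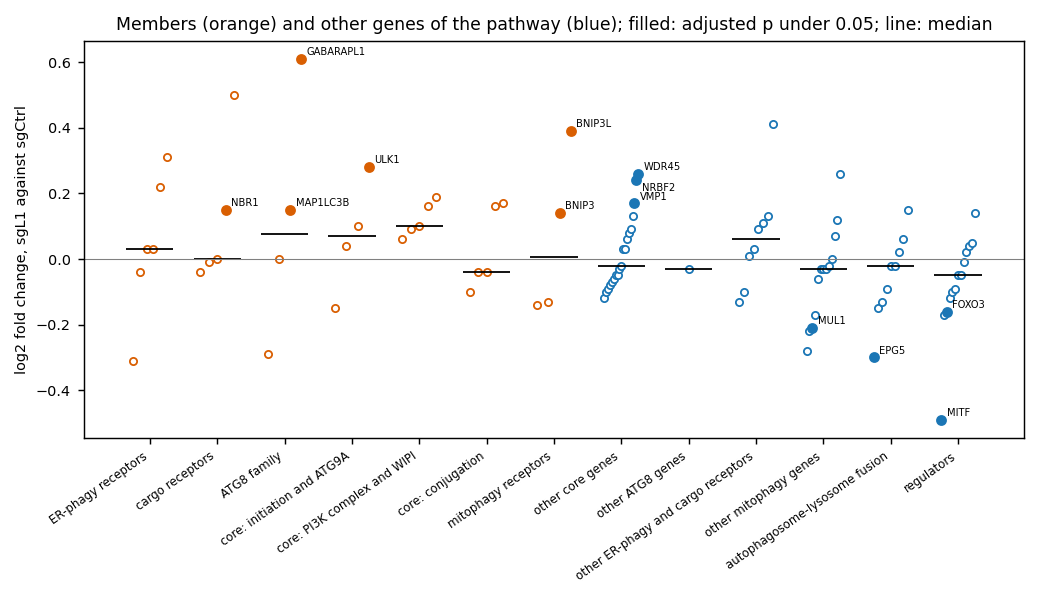
log2 fold change, sgL1 against sgCtrl, of the tested members (orange) and the other genes of the pathway (blue) by function; filled points passed edgeR's test at an adjusted p under 0.05, and lines are medians. The filled members lie above 0, while MITF, EPG5, MUL1 and FOXO3 lie below it.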

How the data were processed

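Total RNA of 9 libraries was analysed from 2 tables. Per the labels' protocols RNA was taken up in TRIzol and made into Illumina libraries. Reads were handled with fastp 0.20.1, STAR 2.7.7a and, for counting, featureCounts 2.0.0 on GRCh38, per the submitters' processing notes. The sources used here give no settings, annotation release or use of strand, so a gene's reads cannot be separated from those of an overlapping or antisense gene. Raw whole-number counts per gene and FPKM values are as the authors deposited them. The deposited FPKM equal the counts times 1 constant per gene and 1 per library (largest relative deviation 9.77e-15). The 627 rows without a gene name held 0.358% to 0.410% of the counts and were left out. Gene positions are from GENCODE release 29, and promoter windows from RefSeq GRCh38.p14, with those on chromosome 8 left out.

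Counts were tested with edgeR 4.0.16 (R 4.3.3): genes kept by filterByExpr, TMM scaling, a robust quasi-likelihood fit of the group over all 9 libraries without covariates, Benjamini-Hochberg adjustment over 15242 genes and a threshold of 0.05. CPM are TMM-scaled. Intervals are 95% and, like the floor of 3 counts, take no account of PCR duplicates: the floor covers counting error only. The code was tested on simulated data, where it missed most changes as small as 1.2-fold and false calls made up a larger share than the threshold allows. Libraries of a group differed by more than sampling noise (chi-square per gene 2.38 to 10.2).

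The members, the lists of other genes and the rule for named genes were chosen with earlier results of these data known. Named are all 34 members, every other listed gene past the threshold (up to 4 per list by smallest adjusted p), UFL1 and UFM1. TFEB, TFE3 and the neighbours of ATG16L1 are named in addition, after their values were seen. MAP1LC3B2, ATG9B, MAP1LC3A, MAP1LC3C and PLEKHM1 are also named outside this rule. The alternatives changed the scaling (RLE, upper quartile or library size), the tool (DESeq2 1.42.0, or limma 3.58.1 on log2(FPKM + 1) or log2(FPKM + 0.1), also for genes averaging at least 1 FPKM), the filter (none, or at least 1 CPM in 3 libraries) and the threshold (0.01). Others dropped each library in turn, took replicate numbers as a block, or used only sgL1 libraries 1 to 3 or 4 to 6. A fold change on the log2(FPKM + pseudocount) scale understates changes of low genes.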

Additional observations from a re-analysis of the deposited data

Results flagged for a closer look

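Each group of 6 sgL1 libraries was searched for a lowest or highest library whose gap to its neighbour exceeds Dixon's 95% critical value for the group's range, over 40 genes; chance gives about 1 in 20 such groups, and 3 genes passed. GABARAPL1 was lowest in sgL1 library 5 at 8.87 CPM, with the next library at 10.2 CPM, a gap of 0.655 of the range; this library still lay above all sgCtrl libraries. MUL1 was lowest in sgL1 library 4 at 41.5 CPM, with the next at 47.8 CPM (0.659). EPG5 was lowest in sgL1 library 2 at 55.9 CPM, with the next at 62.0 CPM (0.673). A different library stood apart for each gene.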

How the results depend on the processing

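GABARAPL1 and BNIP3L were called under all 13 settings other than a left-out library and in all 9 fits that left one out. The 6 members that rose became 2 in limma on log2(FPKM + 1), 2 on log2(FPKM + 0.1) and 2 at an adjusted p under 0.01, and between 2 and 7 with a library left out, 2 without any of the sgCtrl libraries; the 0 that fell became 1 with sgL1 libraries 1 to 3. Over all genes the 841 that rose became 397, 438 and 517 in the same 3 settings and 548 to 580 without an sgCtrl library. Of the other pathway genes, the 3 that rose became 5 under the replicate block, 5 with libraries 1 to 3, and 1 and 1 in the 2 limma fits, and between 1 and 5 with a library left out (1 without sgCtrl library 3, 5 without sgL1 library 4). The 4 that fell became 7 with libraries 1 to 3, 2 and 2 in the limma fits and 2 at an adjusted p under 0.01, and 2 to 5 with a library left out (2 without sgL1 library 5 or any sgCtrl library). Replicate numbers did not pair the libraries (correlations of same-numbered deviations 0.0132, -0.119 and 0.0034), and the fit with this block, in which the sgL1 libraries numbered 4 to 6 have no sgCtrl partner, called 5 members that rose, among them WIPI2 (0.21, adjusted p = 0.0175).

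Of the other 4 members that rose, ULK1, NBR1, MAP1LC3B and BNIP3 lost their call in both limma fits over all genes and at the stricter threshold; NBR1 and MAP1LC3B also lost it without a filter and under the block, MAP1LC3B with upper-quartile scaling and with libraries 1 to 3, and BNIP3 with libraries 4 to 6; MAP1LC3B and BNIP3 lost it also in limma on genes averaging at least 1 FPKM. Sign changes concern members that passed in none of the settings run. Under sgL1 libraries 4 to 6 TEX264 was -0.04, CALCOCO2 0.01, ATG5 0.05 and GABARAPL2 -0.02. Under libraries 1 to 3 OPTN was 0.06, TAX1BP1 -0.05 and RB1CC1 -0.02; under the block OPTN was 0.06, TAX1BP1 -0.05, RB1CC1 -0.02 and ULK2 0.0038. TAX1BP1 was -0.0025 with upper-quartile and -0.0022 with library-size scaling. GABARAPL2 was -0.0018 (RLE), -0.0061 (upper quartile), -0.0057 (library size), -0.003 (no filter), -0.0015 (DESeq2) and -0.0023, -0.0026 and -0.0023 in the limma fits. With a library left out the ranges were -0.0048 to 0.07 for TEX264, -0.05 to 0.06 for OPTN, -0.02 to 0.02 for TAX1BP1, -0.05 to 0.04 for GABARAPL2, -0.41 to 0.18 for ULK2, -0.0027 to 0.08 for RB1CC1, -0.06 to 0.0059 for ATG4B and -0.25 to 0.00089 for FUNDC1. The cause of these changes was not tested. At the depth here ULK2 (9 to 30 counts), RETREG1 (20 to 40) and GABARAP (43 to 78) are the least precise.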

Other observations

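UFM1 ranged from 51.6 to 61.1 CPM in the sgL1 libraries and from 48.5 to 51.6 CPM in the sgCtrl libraries, groups that met at their edges (edgeR log2 fold change 0.17, adjusted p = 0.0862). Among the other listed genes of the pathway, ATG9B, MAP1LC3A, MAP1LC3C and PLEKHM1 stayed too low to be tested.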
